A study of Mus musculus with 2 samples.

Results

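The 9 genes described here encode amino acid transporters of the cell surface or their partner chain: Slc7a11, Slc7a5, Slc3a2, Slc7a1, Slc7a3, Slc38a2, Slc1a4, Slc1a5 and Slc6a9. They were picked by gene symbol from the 25508 genes of the count table, with their change in the same 2 libraries already known, so the values given below describe this choice and test nothing. All 9 were present, and all 9 were among the 12941 genes that reached 10 counts in at least 1 library, called the genes tested. The study asked how silencing of the circular RNA circCsnk1g3 alters the transcriptome of mouse soft-tissue sarcoma cells. One library came from cells transduced with the hairpin shcircCsnk1g3 and 1 from cells transduced with the control hairpin shCTR. Both carried the same background: C57BL/6 mesenchymal stem cells without p53 (p53-/-) and with overexpressed Ccne1 (Ccne1+), grown as subcutaneous tumors, passed to the lungs of other mice, recovered from the lung foci and only then transduced. The labels name neither the hairpin design that was sequenced nor the culture each library came from, and with 1 library per condition there was no replicate error, no test between conditions and no p-value.

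Amino acid transporters are among the best known targets of the integrated stress response, in which kinases that sense amino acid shortage, viral double-stranded RNA, heme lack or misfolded protein phosphorylate eIF2 and thereby increase translation of the transcription factor ATF4. ATF4, often with C/EBP partners, binds composite C/EBP-ATF elements in genes for amino acid uptake, amino acid synthesis and tRNA charging. Slc7a11 is in addition a target of the antioxidant factor NRF2 and is known to be repressed by p53, which these cells lack by genotype.

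The shcircCsnk1g3 library held 38792143 counts and the shCTR library 42709996. Levels are estimated counts, or CPM, which are counts relative to the TMM-scaled library size. Every log2 fold change is shcircCsnk1g3 minus shCTR and is followed in parentheses by a 95% interval, computed from both counts by the exact Clopper-Pearson method. Such an interval covers counting error only, and at 10000 counts per library it reached 0.040 to either side on the log2 scale, at 100 counts 0.41. In bulk RNA a change in the number of cells of a type and a change in RNA per cell cannot be told apart. Of 9 mesenchymal markers, 8 were present with at least 1854 counts in each library, and Thy1 had 0 counts in the silenced library and 1 in the control. Of these 8, 6 were lower in the silenced library, with a median log2 fold change of -0.16, 5 intervals below 0 and Ly6a more than 1.5-fold lower, at -0.69, while Col3a1 was the highest at 0.37; the part of these shifts in the values below was not tested. The 17 markers of leukocytes, endothelium and lung epithelium summed to 28 counts in the silenced library and 35 in the control, and Ptprc, Pecam1 and Epcam had at most 7 counts in either library. Csnk1g3, whose counts stand for the linear transcript, differed by a log2 fold change of -0.05 (-0.14 to 0.03) and Ccne1 by -0.001 (-0.134 to 0.132). Trp53 had 3841 counts in the silenced library and 4334 in the control, although the labels call the cells p53-/-; gene counts do not show which exons were read.

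In the circCsnk1g3-silenced library all 9 transporter genes were higher than in the control library, from 1.06-fold for Slc38a2 to 1.94-fold for Slc6a9 and Slc7a11. The summed level of the 9 genes was 2571 CPM in the silenced library and 2003 CPM in the control, or 0.260% and 0.198% of all counts. All 9 intervals lay above 0, where 26.9% of all genes tested had an interval above 0 and 28.2% had one below 0. At least 1.5-fold higher were 4 of the 9, Slc6a9, Slc7a11, Slc7a3 and Slc1a4, against 5.39% of all genes tested, and none was at least 1.5-fold lower, against 6.31%. Since the genes were chosen on this contrast, nothing is read from these shares. The median log2 fold change of the 9 genes was 0.51 and that of all genes tested was 0.00.

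**Figure D1:**
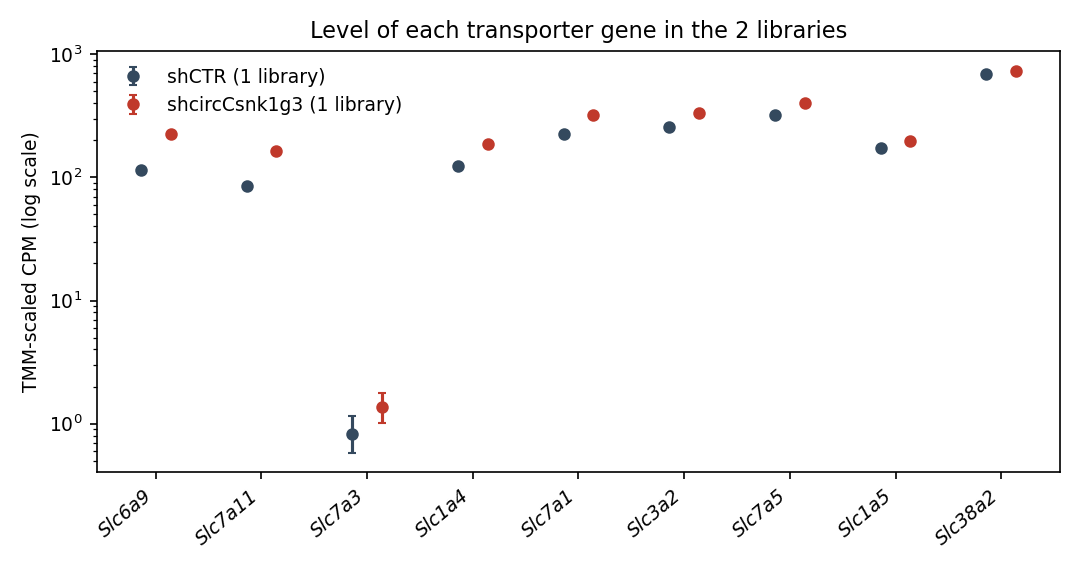
TMM-scaled CPM (log axis) of each transporter gene in the shCTR library (dark) and the shcircCsnk1g3 library (red), 1 library each, with exact Poisson 95% intervals that are smaller than the points for all genes but Slc7a3. The red point is above the dark point for each of the 9 genes, and Slc7a3 stands near 1 CPM while the others lie between 84.9 and 739 CPM.

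Slc7a11 (ENSMUSG00000027737.10, minus strand of chromosome 3, 49892526 to 50443614, GRCm38) encodes xCT, the light chain of the exchanger that imports cystine against glutamate and so feeds glutathione synthesis. Its count was 6469 in the silenced library against 3588 in the control, corresponding to 165 and 84.9 CPM. The log2 fold change was 0.96 (0.90 to 1.02). Among the 10662 genes tested with at least 200 summed counts, 1.99% were at least 1.5-fold higher and 29.5% had an interval above 0, and Slc7a11 stood at rank 64 by log2 fold change. The RefSeq promoter window of Slc7a11 (250 bases before to 50 after the start) held the letters of the C/EBP-ATF composite element in both orientations, and the stretch around them is printed here because none of the other 5 members with a window has a pair of them. It covers 120 bases before to 10 after the start, chr3:50443604-50443733 on the minus strand of GRCm38.p6, with the matches in capitals.
Slc7a11: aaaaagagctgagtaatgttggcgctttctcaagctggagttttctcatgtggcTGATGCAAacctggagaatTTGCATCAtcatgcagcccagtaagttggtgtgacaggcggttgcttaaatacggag

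Slc3a2 (ENSMUSG00000010095.13, minus strand of chromosome 19, 8706882 to 8723369) encodes 4F2hc, the heavy chain that carries Slc7a11, Slc7a5 and related light chains to the cell surface. It had 13114 counts in the silenced library and 10814 in the control (334 and 256 CPM), and was 1.31-fold higher. Its log2 fold change was 0.39 (0.35 to 0.42), so its interval did not overlap that of Slc7a11. Slc7a5 (ENSMUSG00000040010.10, minus strand of chromosome 8, 121881150 to 121907694) encodes LAT1, the light chain that exchanges glutamine for leucine and other large neutral amino acids. Slc7a5 had 15686 and 13579 counts (400.0 and 321 CPM), a log2 fold change of 0.32 (0.28 to 0.35). The predicted gene Gm20388 runs across Slc7a5 on the opposite strand without sharing exon bases, and had 4840 and 4453 counts.

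Slc6a9 (ENSMUSG00000028542.17, plus strand of chromosome 4, 117834506 to 117875198) encodes the sodium-coupled glycine transporter GLYT1. It had 8798 counts in the silenced library and 4874 in the control, or 224 and 115 CPM. Its log2 fold change of 0.96 (0.91 to 1.01) matched that of Slc7a11 within counting error, and by the same ranking it stood at 63. The exons of Slc6a9 share 1429 bases with Ccdc24, which lies on the opposite strand and had 142 counts in the silenced library and 66 in the control, at 1.19 on the log2 scale (0.78 to 1.66). B4galt2, also on the opposite strand, shares 46 exon bases and had 2774 and 2917 counts. The library kit keeps strand, but the sources used here do not state whether the counting used it, so reads of Slc6a9 and Ccdc24 may be mixed, and their part in either value was not tested.

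Slc1a4 and Slc1a5 encode ASCT1 and ASCT2, sodium-dependent exchangers of small neutral amino acids, of which the first favors serine, alanine and cysteine and the second glutamine. Slc1a4 (ENSMUSG00000020142.12, minus strand of chromosome 11, 20302180 to 20332713) had 7366 counts in the silenced library and 5277 in the control (188 and 125 CPM). Its log2 fold change of 0.59 (0.54 to 0.64) lies just inside the threshold of 1.5-fold, which is 0.585 on this scale and falls within the interval. Slc1a5 (ENSMUSG00000001918.17, plus strand of chromosome 7, 16781340 to 16798274) had 7764 and 7386 counts (198 and 175 CPM), a log2 fold change of 0.18 (0.13 to 0.23). The intervals of the paralogs did not overlap.

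Slc38a2 (ENSMUSG00000022462.6, minus strand of chromosome 15, 96687392 to 96699730) encodes SNAT2, the sodium-coupled importer of small neutral amino acids that cells are known to induce when amino acids run short. It had the highest CPM of the 9 genes, with 28994 counts in the silenced library and 29525 in the control (739 and 699 CPM). Its log2 fold change of 0.08 (0.06 to 0.10) was the smallest of the 9, and its raw count was lower in the silenced library, which was also the smaller library. Without Slc38a2 the other 8 genes summed to 1832 and 1304 CPM, a log2 fold change of 0.49 (0.47 to 0.51), against 0.36 (0.35 to 0.37) with it.

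Slc7a1 and Slc7a3 encode CAT1 and CAT3, carriers of arginine, lysine and ornithine that need no heavy chain. Slc7a1 (ENSMUSG00000041313.14, minus strand of chromosome 5, 148327410 to 148399904) had 12576 counts in the silenced library and 9542 in the control (321 and 226 CPM). Its log2 fold change was 0.51 (0.47 to 0.54), a 1.42-fold difference just short of the threshold. Slc7a3 (ENSMUSG00000031297.14, minus strand of chromosome X, 101079210 to 101086020) had 53 and 35 counts (1.35 and 0.828 CPM). Its log2 fold change was 0.67, but with so few counts the interval ran from 0.06 to 1.37 and held the values of all other members. With a prior count of 10 its log2 fold change was 0.57, below the threshold of 1.5-fold, and with a minimum of 200 summed counts it was not among the genes tested. The remaining carrier of this kind, Slc7a2, is no member and was looked up after the values were seen: it was lower, with 2964 counts in the silenced library against 4273 in the control and a log2 fold change of -0.42 (-0.49 to -0.35). Summed over Slc7a1, Slc7a2 and Slc7a3 the log2 fold change was 0.28 (0.25 to 0.31).

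**Figure D2:**
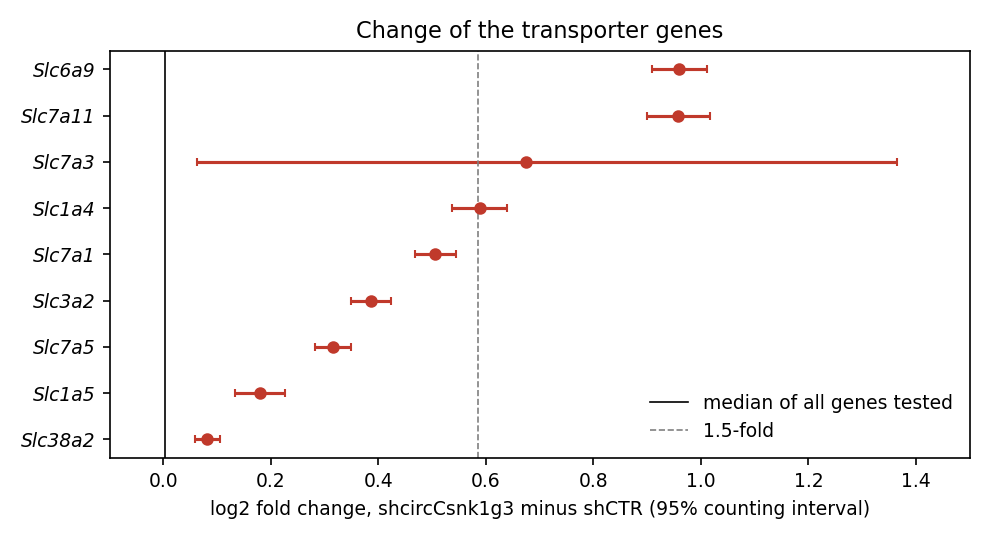
Log2 fold change (shcircCsnk1g3 minus shCTR) of the 9 transporter genes with the 95% counting interval, ordered by size; the solid line is the median of all genes tested and the dashed line marks 1.5-fold. Slc6a9 and Slc7a11 lie at 0.96 with narrow intervals, Slc7a3 has an interval from 0.06 to 1.37, and Slc38a2 lies at 0.08.

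By log2 fold change the order was Slc6a9, Slc7a11, Slc7a3, Slc1a4, Slc7a1, Slc3a2, Slc7a5, Slc1a5 and Slc38a2. Slc7a3 has no firm place in it, since its interval overlapped those of all 8 others. The intervals of Slc6a9 and Slc7a11 overlapped each other and lay above those of Slc1a4, Slc7a1, Slc3a2, Slc7a5, Slc1a5 and Slc38a2. Those of Slc1a4 and Slc7a1 overlapped in a narrow band, those of Slc3a2 and Slc7a5 met without overlapping, and those of Slc7a5, Slc1a5 and Slc38a2 lay apart. These intervals compare 2 libraries, and the spread between cultures is not known.

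**Figure D3:**
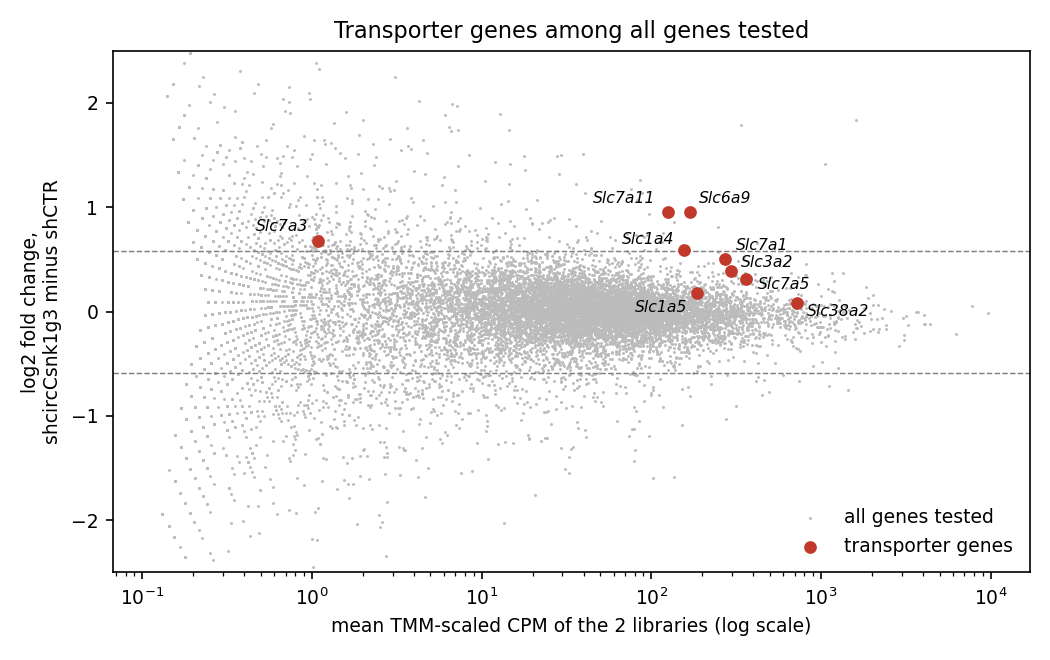
Log2 fold change (shcircCsnk1g3 minus shCTR) against the mean TMM-scaled CPM of the 2 libraries (log axis) for all 12941 genes tested (gray) and the 9 transporter genes (red); dashed lines mark 1.5-fold in either direction, and 48 genes lie outside the vertical range. The transporter genes other than Slc7a3 lie at high CPM, where the gray cloud is narrow, and Slc7a3 lies at about 1 CPM, where it is wide.

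Levels can be set against each other only per length of transcript. Divided by the length of the principal GENCODE transcript, the control library held 149.96 CPM per kb of Slc38a2, 141 of Slc3a2, 91.4 of Slc7a5, 63.2 of Slc1a5, 33.2 of Slc6a9, 31.8 of Slc1a4, 31.5 of Slc7a1, 9.21 of Slc7a11 and 0.301 of Slc7a3. Slc1a4 could not be separated by counting error from its neighbors in that order, Slc6a9 and Slc7a1. In the silenced library Slc3a2, at 184 CPM per kb, stood above Slc38a2, at 159, and the other places were the same. With the length of all annotated exons in place of the principal transcript, Slc7a5 led the control library at 86.7 CPM per kb and Slc3a2 was at 72.5, so the order of the leading genes depends on which transcripts the cells use.

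The light chains that pair with Slc3a2 (Slc7a5, Slc7a6, Slc7a7, Slc7a8, Slc7a10 and Slc7a11) were summed after the values were seen. Together they had 26598 counts in the silenced library against 21548 in the control and a log2 fold change of 0.41 (0.39 to 0.44). This sum gives long transcripts such as that of Slc7a11 more weight, so it is not set against the heavy chain. Per kb of principal transcript the light chains summed to 162 CPM in the silenced library and 129 in the control. Relative to Slc3a2 this was 0.884 and 0.917, and with the length of all annotated exons 1.53 and 1.597. No interval was computed for these ratios. Slc7a8 and Slc7a10 had no counts. Slc7a5 made up 70.0% of the light chain level per kb in the silenced library and 70.8% in the control. The share of Slc7a11 was 11.0% and 7.13%, and that of Slc7a6, which encodes an exchanger of cationic for neutral amino acids, was 18.0% and 20.4%.

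Of 47 other amino acid transporters listed, 16 had no counts in either library, where a count of 0 allows up to 3 counts, or 0.0765 CPM in the silenced and 0.0710 CPM in the control library. Of the 25 that could be tested, 15 were higher and 10 lower, with a median log2 fold change of 0.07. Among their intervals 8 lay above 0, 5 below it and 12 across it. Over all genes tested, 26.9% of intervals lay above 0 and 28.2% below it, 5.39% of genes were at least 1.5-fold higher and 6.31% lower. The 9 members were chosen with their values in these libraries known, so no difference from them is drawn. At least 1.5-fold higher were 3, all with few counts: Slc7a4 (65 against 41 counts, 0.74, 0.19 to 1.37), the brain-type neutral amino acid transporter gene Slc6a15 (14 against 5, 1.28, 0.04 to 3.42) and Slc7a14 (16 against 10, with an interval across 0, named after its value was seen). The glutamate transporter gene Slc1a2 was lower, with 1 count against 12 and an interval from -8.90 to -0.72. The 3 with most counts were Slc6a6, the taurine transporter gene, at -0.15 (-0.18 to -0.11), Slc38a1, the system A relative of Slc38a2, at 0.12 (0.08 to 0.16), and Slc38a10 at -0.25 (-0.30 to -0.20). None of 7 mitochondrial amino acid carriers tested was past 1.5-fold in either direction, and their median was -0.01.

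Of 19 regulators and effectors of the integrated stress response, 18 were tested, 17 were higher, 5 of them at least 1.5-fold, and the median log2 fold change was 0.35. Of all 12941 genes tested, 6521 were higher and 6420 lower, and 5.39% were at least 1.5-fold higher. Among genes with at least 200 summed counts, which 17 of the 18 had, that share was 1.99%. This list was chosen with earlier results of these data known, so nothing is read from its counts. The transcript of Atf4 itself had 37477 counts in the silenced library against 38849 in the control and a log2 fold change of 0.06 (0.04 to 0.08). The 3 largest differences were those of the stress transcription factor genes Atf3, at 1.22 (1.11 to 1.34), and Ddit3, which encodes CHOP, at 1.07 (0.998 to 1.146), and of the lipoprotein receptor gene Vldlr, at 0.87 (0.78 to 0.96). Among 6 eIF2 kinases and partners of GCN2, 3 were higher and 3 lower. Eif2ak2, which encodes PKR, was at 0.43 (0.34 to 0.52), Eif2ak1, which encodes HRI, at -0.18 (-0.27 to -0.09), and Eif2ak4, which encodes the amino acid sensor GCN2, at 0.16 (0.06 to 0.26). Eif2ak3, which encodes PERK and was named after its value was seen, was at -0.05 (-0.17 to 0.07). Of 16 endoplasmic reticulum chaperone genes, 15 were lower, with a median of -0.32, led by Sdf2l1 at -0.84 (-0.98 to -0.70), Manf at -0.51 (-0.57 to -0.45) and calreticulin, Calr, at -0.48 (-0.50 to -0.46).

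The enzymes that make the transported amino acids were divided. Of 19, 11 were higher and 8 lower, with a median log2 fold change of 0.07. Gpt2, which makes alanine from pyruvate and glutamate, was at 0.81 (0.77 to 0.85) with 12338 counts in the silenced library and 7580 in the control. Among the proline synthesis genes, Pycr1 was at 0.47 (0.30 to 0.65) and Pycrl, now named Pycr3, at -0.54 (-0.64 to -0.44). Of 20 cytosolic tRNA synthetases, which charge tRNAs with amino acids, 15 were higher and none was past 1.5-fold; the largest differences were 0.33 for Cars, 0.32 for Tars and 0.30 for Sars.

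Because Slc7a11 answers to NRF2 as well as to ATF4, the NRF2 pathway was listed beside it. Its 17 genes divided into 10 higher and 7 lower, around a median of 0.08. Nfe2l2, which encodes NRF2, was at 0.26 (0.21 to 0.30) and its inhibitor Keap1 at 0.17 (0.09 to 0.25). The quinone reductase gene Nqo1 was at 0.69 (0.58 to 0.79) and the glutathione conjugate exporter gene Abcc1 at -0.43 (-0.47 to -0.40). Of 11 genes for glutathione synthesis and use, 3 of which are also on the NRF2 list, 4 were higher and 7 lower. Glrx, which encodes glutaredoxin, had 912 counts in the silenced library and 2128 in the control, at -1.11 (-1.228 to -1.002). Ggct was at -0.93 (-1.25 to -0.65), and Gclc, the catalytic subunit of the enzyme that commits cysteine to glutathione, at 0.23 (0.14 to 0.32). For amino acid sensing by mTORC1, 29 genes divided into 13 higher and 16 lower, around a median of -0.02. Gatsl2, a close relative of the arginine sensor CASTOR1, was at -0.65 (-0.75 to -0.54), Sesn3, of the leucine-sensing sestrin family, at -0.39 (-0.65 to -0.13), and Rragb at 0.64 (0.42 to 0.86). Rragb has a close paralog in Rraga, which was at -0.14 (-0.23 to -0.06); reads shared between them were not measured, so both values are uncertain.

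**Figure D4:**
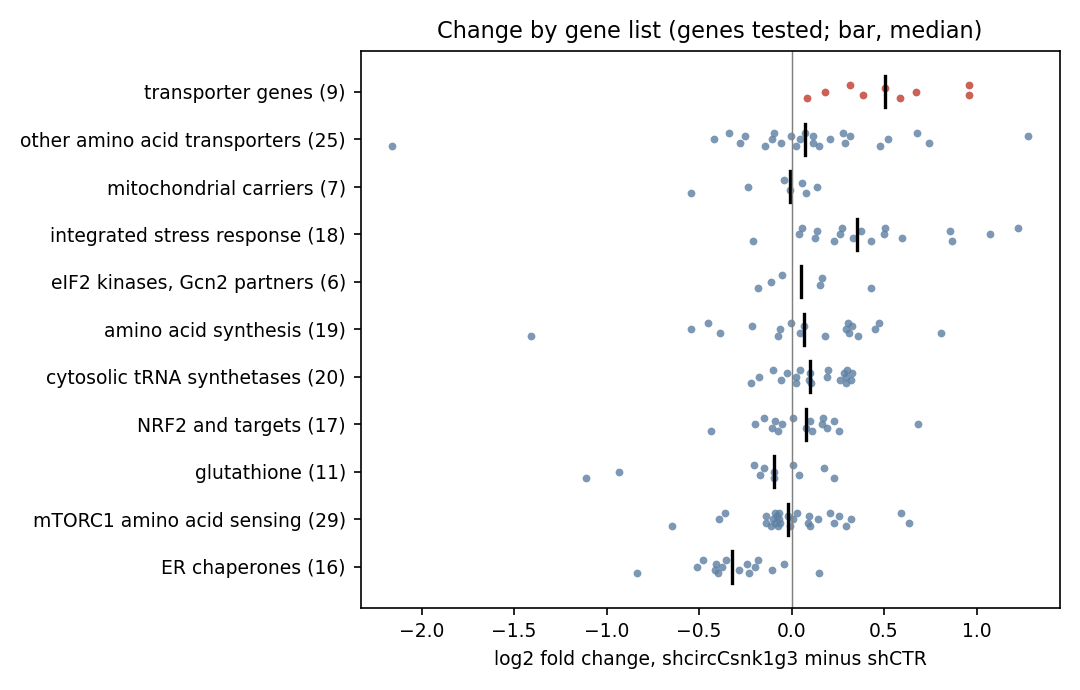
Log2 fold change (shcircCsnk1g3 minus shCTR) of each tested gene of 11 lists; the number of genes is in parentheses and the bar is the median. The 9 transporter genes, which were chosen with their values known, all lie above 0 with a median of 0.51. Of 18 integrated stress response genes 17 lie above 0, with a median of 0.35. The other amino acid transporters lie on both sides with a median of 0.07, and the endoplasmic reticulum chaperones have a median of -0.32.

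The RefSeq promoter table held windows for 6 of the 9 genes, 9 windows in all; Slc7a5, Slc7a3 and Slc1a5 were not matched. The letters TGATGNAA, for the C/EBP-ATF composite element, were searched on both strands. They were found in 2.29% of the 12280 windows of tested genes and in 3.97% of all 32851 windows. Among the members they were found in Slc7a11, from 66 to 59 and from 47 to 40 bases before the start, and in Slc1a4, where the match spans the start from base -4 to base 4. The windows of Slc6a9, Slc7a1, Slc3a2 and Slc38a2 did not hold these letters. The letters TGACNNNGC, for the antioxidant response element, are less specific and occurred in 14.4% of windows of tested genes. They were found in 2 of 3 windows of Slc6a9, 1 of 2 of Slc7a1 and in that of Slc38a2, and not in Slc7a11, Slc1a4 or Slc3a2. A match is a description of letters in this window and not a site; elements in introns or farther upstream lie outside it. The stretches below, 120 bases before to 10 after the start of GRCm38.p6, show the remaining match to the composite element, in Slc1a4, in capitals, and a window without one for a glycine and a neutral amino acid transporter gene, Slc6a9 and Slc38a2. Of the 3 windows of Slc6a9 the most upstream is printed, which held neither motif; the other 2 each held the antioxidant element. Nothing is read from the matches about the fold changes. Slc1a4 lies at chr11:20332704-20332833 (minus strand), Slc6a9 at chr4:117835138-117835267 (plus strand) and Slc38a2 at chr15:96699719-96699848 (minus strand).
Slc1a4: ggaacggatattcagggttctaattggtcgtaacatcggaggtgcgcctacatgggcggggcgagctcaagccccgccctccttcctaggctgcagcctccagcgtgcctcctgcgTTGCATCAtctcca
Slc6a9: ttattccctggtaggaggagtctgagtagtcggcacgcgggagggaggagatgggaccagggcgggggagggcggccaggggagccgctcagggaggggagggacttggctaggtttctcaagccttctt
Slc38a2: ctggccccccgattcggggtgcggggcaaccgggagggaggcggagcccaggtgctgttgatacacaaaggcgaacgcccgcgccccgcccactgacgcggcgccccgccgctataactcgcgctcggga

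**Figure D5:**
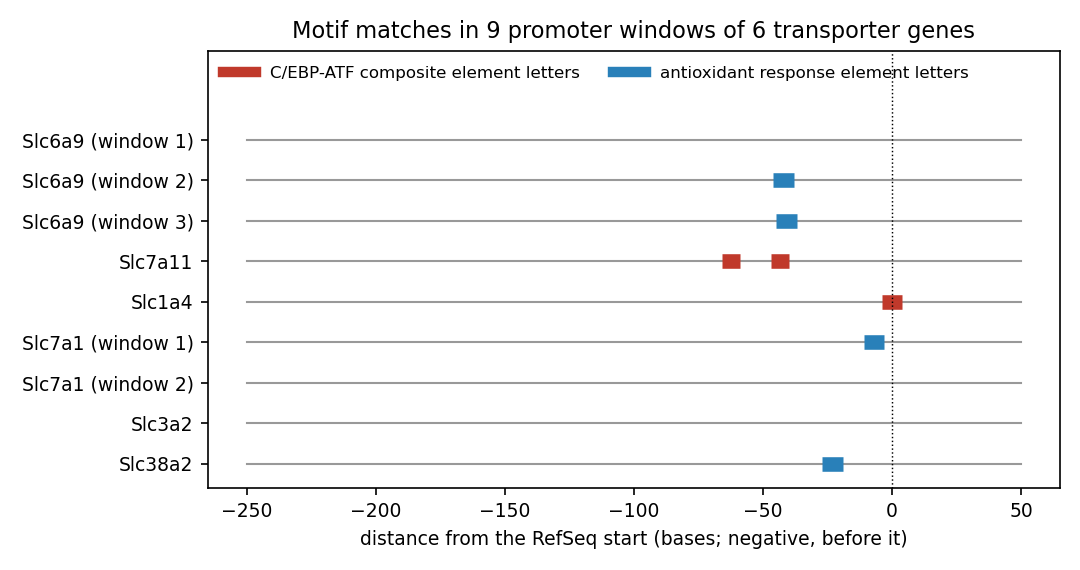
Position of the motif letters in the promoter windows of 6 transporter genes, by distance in bases from the RefSeq start (dotted line), with windows of a gene numbered from the most upstream; red marks the C/EBP-ATF composite element and blue the antioxidant response element. Slc7a11 has 2 red marks before the start and Slc1a4 has 1 across it, while the other windows have no red mark.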

How the data were processed

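Polyadenylated RNA of both cell cultures was sequenced from stranded libraries. Per the study's methods, the authors converted reads with bcl2fastq 2.20, aligned them to GRCm38 with STAR 2.6.1 and quantified genes with RSEM 1.2.28, which divides reads shared between genes. The count table the authors deposited holds these estimated counts rounded to whole numbers, with 92 spike-in rows that hold 0 counts and were left out. A further table the authors deposited gives TMM-scaled CPM from edgeR for 11624 genes, including all 9 members. It is the count column times a constant in each library, and the rule for its genes is not stated. Estimated counts are therefore unscaled and CPM are relative to an effective library size.

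Genes that reached 10 counts in at least 1 library gave the TMM factors (1.01 for shcircCsnk1g3, 0.989 for shCTR), by edgeR 4.0.16 under R 4.3.3. Log2 fold changes used a prior count of 2. The remaining steps used scipy 1.17.1, pandas 2.3.3, numpy 2.4.6 and matplotlib 3.10.9 under python 3.11.15, and were tested on simulated data. With 1 library per condition a difference of at least 1.5-fold stands in place of a test. The members and gene lists were chosen with earlier results of these data known. Named from the lists were the 3 largest differences among genes with at least 200 summed counts and certain regulators. Of the other transporters, those past 1.5-fold with an interval clear of 0 and the 3 with most counts were named. Gene positions and lengths came from GENCODE M21, which held 25251 of the 25508 identifiers, 17349 of them in the same version. Slc38a2 is the only member held in another version, so its position and length may differ from those behind its counts. Promoter sequences came from RefSeq (GRCm38.p6). Protein sequences were not analysed here. Alternatives were DESeq2 1.42.0 size factors, total counts, prior counts of 0.5 and 10, the deposited CPM, other count filters, and thresholds of 1.25-fold and 2-fold.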

Additional observations from a re-analysis of the deposited data

How the results depend on the processing

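No paired analysis was possible because each condition had a single library, and no replicate could be left out. Of 45 log2 fold changes of single members under the alternatives, 44 stayed within their counting interval; Slc38a2 moved to 0.11 with total counts, where the median of all genes was 0.03. The number of members at least 1.5-fold higher was 3 with a prior count of 10 and with at least 200 summed counts, both times without Slc7a3, and 4 under the other scalings, priors and filters, 6 at the lower threshold and 0 at 2-fold. Without Slc7a11 the median of the members was 0.45. Over all genes tested, 698 were higher and 817 lower past the threshold; these counts were 362 and 534 in the deposited table, 1765 and 1468 without a count filter, 405 and 533 with at least 50 and 212 and 335 with at least 200 summed counts, 1598 and 1692 at the lower threshold and 275 and 330 at 2-fold.

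For the other lists, a count is called moved if it changed by more than 1.5-fold or went to or from 0. A median is called moved if it left the range from the median lower bound to the median upper bound of the list's intervals. By these rules 12 of 160 counts and 1 of 80 medians moved, and smaller changes were not tallied. The other amino acid transporters at least 1.5-fold higher numbered 3 in the main setting and 2, not called moved, with a prior count of 10. They numbered 1 in the deposited table, 6 without a count filter, 1 with at least 50 and 0 with at least 200 summed counts. Those at least 1.5-fold lower numbered 0 in the deposited table and under both stricter filters. Of the mTORC1 list, 1 gene was at least 1.5-fold higher with a prior count of 10 and with at least 50 or 200 summed counts. Of the synthesis enzymes, 0 were at least 1.5-fold lower with at least 200 summed counts and their median was 0.12, and without a count filter 1 mitochondrial carrier was. Fewer or more genes are tested under these filters; the cause was not tested otherwise. With matches limited to the 250 bases before the start, 1 member held the composite element. With the length of all annotated exons, chosen after seeing the data, the light chain level relative to Slc3a2 went from 0.884 to 1.53 in the silenced library and from 0.917 to 1.597 in the control. Counting error leaves the threshold of 1.5-fold within the intervals of Slc7a3 and Slc1a4.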
